A study of Mus musculus with 12 samples.

Results

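CD8 T cells of TCF-1 cKO mice were compared after 7 days in an allogeneic recipient with the same kind of cells before transplant. The comparison uses 6 of the 12 RNA-seq libraries of the series, 3 titled TCF-1 cKO pre-transplant and 3 titled TCF-1 cKO post-transplant, chosen by their titles alone. All 6 come from C57BL/6 mice whose Tcf7 gene, which encodes TCF-1, is floxed on both alleles and deleted by CD4cre (TCF-1 flox/flox x CD4cre). This Cre acts in thymocytes that express CD4, so CD4 and CD8 T cells of these donors both lose the gene, and it is not restricted to mature or activated cells. Pre-transplant cells were CD8 T cells sorted by flow cytometry from donor spleens, in 3 replicates. The study's text does not say whether each replicate was a separate mouse. For the post-transplant libraries, donor T cells were given with T cell-depleted WT bone marrow to lethally irradiated BALB/c mice, which differ at the MHC. The study's text names CD3 T cells as those given, while the legend of its RNA-seq figure describes CD8 T cells sorted for transplant. Donor CD8 T cells, recognized by the donor MHC molecule H2Kb, were then sorted from the recipient spleen at day 7. The other 6 libraries are the WT counterparts, C57BL/6 cells without the deletion, taken at the same stages. Donors were kept close in age to one another and to the recipients where possible. The source label of post-transplant replicate 2 of this genotype reads CD4 instead of CD8, against its title.

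Alloactivation is the response of T cells to the MHC molecules of another strain. A CD8 T cell so activated divides many times, changes its receptors for migration and cytokines, and loads granules with granzymes and perforin, with which it kills target cells. TCF-1 is a transcription factor that binds DNA, and LEF-1 is its relative. It is best known in mature CD8 T cells for maintaining naive and memory programs, and it is normally lowered as effector cells form.

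The labels were first checked against the levels of Tcf7, Cd8a, Cd8b1 and Cd4, in CPM (counts scaled to the same total in every library). Tcf7 (ENSMUSG00000000782, chromosome 11, 52252371 to 52283014, GRCm38) was at 56.8, 78.9 and 97.1 CPM in pre-transplant replicates 1 to 3 and at 8.999, 9.48 and 9.31 CPM post-transplant. In WT post-transplant libraries it was at 6.89 to 17.2 CPM, so that the genotypes overlapped at day 7 (exact permutation test, two-sided p = 0.4). Before transplant they did not overlap, with WT at 152, 115 and 205 CPM, all above TCF-1 cKO (exact permutation test, two-sided p = 0.1). Cd8a, Cd8b1 and Cd4 were also higher in every WT pre-transplant library (exact permutation test, two-sided p = 0.1 each). So was the sum of the 11 T cell genes listed below, at 2443 to 2956 CPM in WT against 1088 to 1672 CPM. The part of T cell content in the lower Tcf7 level was not tested. The transcripts of the gene were summed and the deleted exons are not given in the sources used here, so this level does not check the deletion. Cd8a was at 57.3, 66.2 and 47.7 CPM before and at 475, 432 and 331 CPM after transplant. Cd4 went the other way, from 49.6, 53.8 and 75.2 CPM to 4.31, 1.42 and 2.41 CPM, with the lowest value in the library that carries the CD4 label. None of these genes overlapped between the stages (exact permutation test, two-sided p = 0.1 for Tcf7, Cd8a, Cd8b1 and Cd4, the smallest p that 3 libraries against 3 can give).

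The pre-transplant libraries went against their label. Together, 17 B cell genes made up 33195 to 68654 CPM before transplant and 379 to 575 CPM after it. Cd79a, a chain of the B cell receptor complex, was at TMM-normalized levels, scaled also for composition, of 659, 599 and 1167 CPM before transplant and at 6.37, 1.26 and 1.76 CPM post-transplant. Erythroid genes summed to 4972 to 27002 CPM before and 223 to 569 CPM after transplant. The sum of 11 T cell genes (the CD3 chains, the T cell receptor constant regions, Thy1, Cd2, Cd5 and Cd6) moved the other way, from 1088 to 1672 CPM before transplant to 11242 to 12695 CPM post-transplant. The ratio of B cell to T cell transcripts was 30.5 to 41.1 before transplant and 0.0337 to 0.0486 post-transplant, and 19.9 to 23.1 in the WT pre-transplant libraries. Every difference between the stages below is a difference between these mixtures of RNA. In bulk samples, fewer cells of a type and less RNA per cell cannot be told apart.

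**Figure D1:**
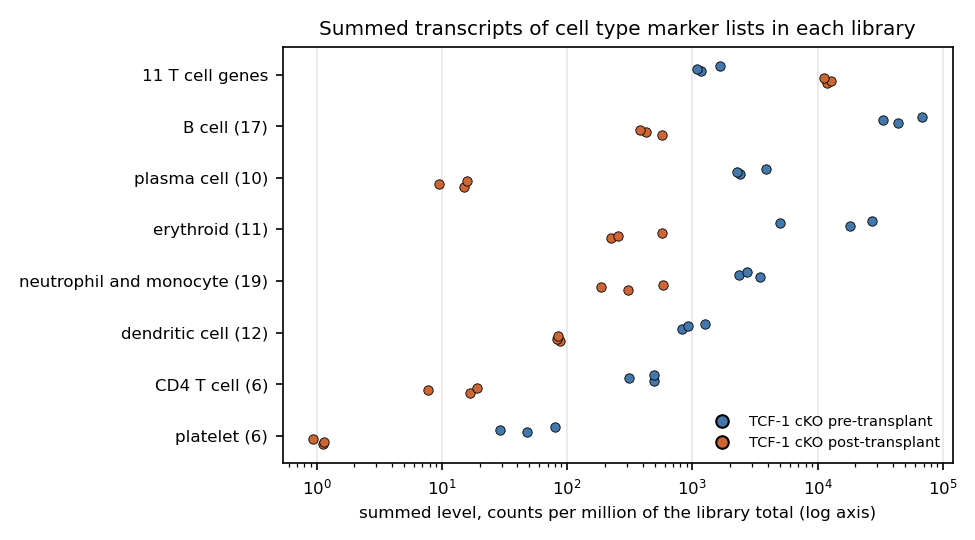
Summed level of each marker list in the 3 TCF-1 cKO pre-transplant and 3 TCF-1 cKO post-transplant libraries, in CPM of the library total on a log axis, 1 point per library and the number of genes in parentheses. B cell genes summed to 33195 to 68654 before and 379 to 575 after transplant, while the 11 T cell genes went from 1088 to 1672 up to 11242 to 12695.

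Depth differed as well. The TCF-1 cKO pre-transplant libraries held 4520270 to 9577076 estimated counts and the post-transplant libraries 18398553 to 24554695, so that 3 counts, taken as the smallest level a library shows, correspond to 0.315 to 0.667 and to 0.123 to 0.164 CPM. Without molecular identifiers in the reads, such floors account for counting error alone. More genes reached 1 TPM before transplant (16971 to 21276) than after it (11820 to 12458). Pre-transplant replicate 3 stood apart, with 0.567% of its counts from mitochondrially encoded genes against up to 3.25% in the other pre-transplant libraries. Transcripts of olfactory and vomeronasal receptors, which serve in smell, summed to 9890 CPM in it, to 27348 and 35090 CPM in pre-transplant replicates 1 and 2 and to 3599 to 4950 CPM post-transplant. Counts were scaled by TMM, a method that takes the bulk of genes as unchanged, and the log2 fold change of the median gene was then -0.29. Scaled by library totals it was -1.89, and scaled by the 11 T cell genes, an alternative chosen after the marker levels were seen, it was -4.09. A log2 fold change of 1.61 by TMM therefore corresponds to no change by library totals, and 3.82 to no change relative to the T cell genes. Below, "rose" and "fell" refer to TMM, values per library are TMM-normalized CPM, and counts under the other scalings stand beside those of most lists. TMM factors were 1.38 to 2.01 in the pre-transplant and 0.542 to 0.609 in the post-transplant libraries. TMM-normalized values are therefore not shares of a library's RNA. None of the values are amounts per cell.

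Of 18535 genes tested, 6774 (36.5%) passed an FDR of 0.1 in the edgeR quasi-likelihood test (adjusted by the Benjamini-Hochberg method), 3660 of them higher (19.7%) and 3114 lower (16.8%) post-transplant. In 8711 genes (47%) the values of the 3 and 3 libraries did not overlap, and 6548 genes met both conditions. By library totals, 1660 genes (8.96%) were higher and 10608 (57.2%) lower. All 1660 were also among the genes higher by TMM, and all 3114 genes lower by TMM stayed lower. Relative to the T cell genes, scaled by their median ratio, 227 genes (1.22%) were higher and 16389 (88.4%) lower. The 11 genes themselves ranged from -3.5 (Cd6) to 2.26 (Cd3g) by this scaling. Scaled by their sum instead, 79 genes were higher and 17557 lower. Genes named below as higher relative to the T cell genes were called by the median ratio, and fewer would be by the sum. Without pre-transplant replicate 3 the TMM count was 7114. Each gene group below is read against these percentages. Where nothing says that samples came from separate experiments, p-values measure the spread between these samples, and the study ran its RNA-seq once.

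Several granzymes and the granzyme inhibitors Serpinb9 and Serpinb6b were far higher post-transplant. Gzmb (ENSMUSG00000015437, chromosome 14, 56258838 to 56262260, GRCm38), a protease that triggers apoptosis in target cells, was at 11.4, 9.96 and 17.3 CPM before transplant and at 7686, 6785 and 9538 CPM post-transplant. Its log2 fold change was 9.28 (standard error 0.51, edgeR adjusted p = 0.000105). Gzma, a granzyme with other substrates, rose from 118, 67.6 and 51.6 CPM to 12006, 9094 and 12720 CPM, a log2 fold change of 7.16 (standard error 0.52). The 2 groups were far apart for both genes, and neither had a library near the other stage.

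Of the 19 genes on the cytotoxic granule list, 18 had enough counts to be tested, 15 rose and none fell. Their median log2 fold change was 4.06 by TMM, 2.64 by library totals and 0.58 relative to the T cell genes, which is 4.35, 4.52 and 4.67 above the median of all genes. Library totals kept 11 of the 15 higher, and the T cell genes kept 8 (6 of them whichever library was left out), while 9 members were lower than the T cell genes. Gzmk and Gzmc, further granzymes, rose by log2 fold changes of 8.62 and 7.97, from at most 7.60 CPM before transplant to at least 180 CPM. Serpinb9, which protects the killer cell from its own granzyme B, was at 27.4, 18.7 and 14.1 CPM before and at 2886, 1683 and 2775 CPM after transplant. Its relative Serpinb6b rose by 7.16. Gzmb, Gzma, Gzmk, Gzmc, Serpinb9 and Serpinb6b were also higher relative to the T cell genes. Gzmd, Gzme, Gzmf and Gzmg are close in sequence, and reads shared between them can be split by the counting. Gzmm, a granzyme encoded elsewhere, was at 9.63, 3.25 and 7.80 CPM before and at 12.5, 31.6 and 14.7 CPM after transplant, did not pass by library totals (-0.04) and was lower than the T cell genes (-2.29).

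Perforin, the protein that opens the target membrane, had a smaller fold change than Gzmb or Gzma. Prf1 was at 54.9, 34.7 and 59.3 CPM before and at 153, 164 and 159 CPM post-transplant, a log2 fold change of 1.68 (standard error 0.36, edgeR adjusted p = 0.0075). By library totals this change was 0.11 and did not pass, and relative to the T cell genes Prf1 was lower, at -2.09. Nkg7, a granule membrane protein, likewise rose by TMM (2.72) and by library totals (1.23) and was lower than the T cell genes (-0.94). Gzmd, a granzyme of the same gene cluster as Gzmb, was at 0, 0 and 0.0765 CPM before transplant, under the floor of 3 counts, and at 14.4, 7.18 and 2.68 CPM after it.

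**Figure D2:**
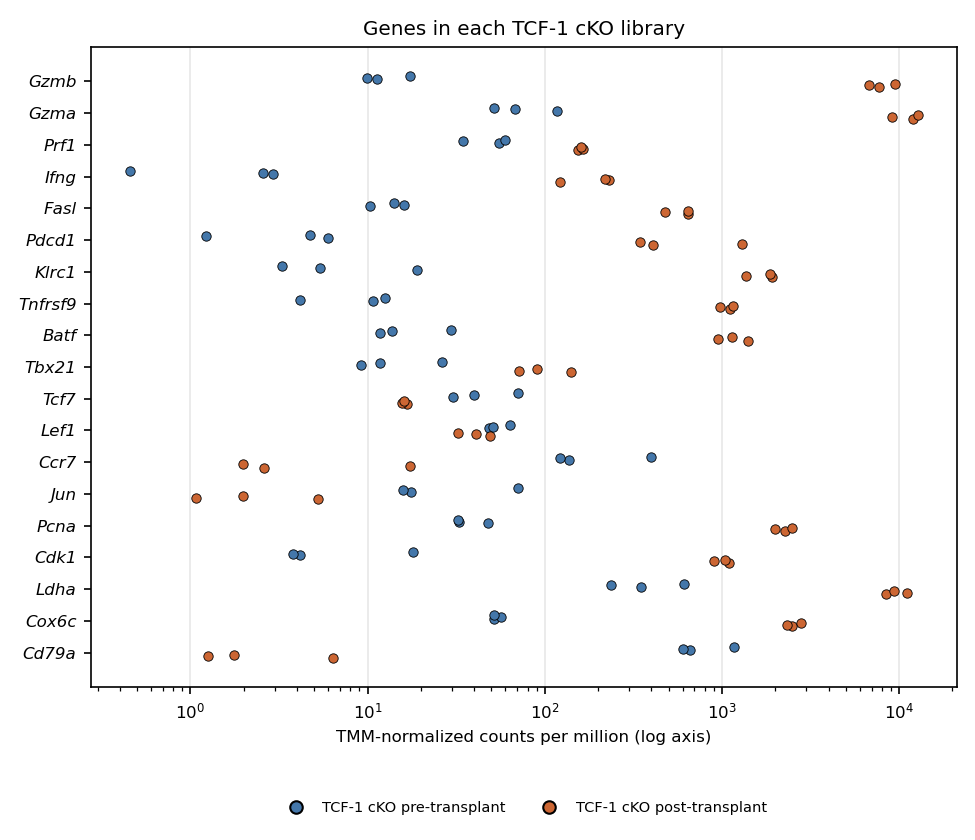
Level of 19 genes in each TCF-1 cKO library, in TMM-normalized CPM on a log axis, 1 point per library. Gzmb lay between 9.96 and 17.3 before and between 6785 and 9538 after transplant, Lef1 overlapped between the stages, and Cd79a fell from 599 to 1167 down to 1.26 to 6.37.

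Cytokine and chemokine genes were split. Ifng, the cytokine that activates macrophages and raises MHC expression, was at 2.94, 2.57 and 0.459 CPM before transplant and at 122, 232 and 218 CPM post-transplant, a log2 fold change of 6.60 (standard error 0.73). Csf2, which encodes the growth factor GM-CSF, rose by 6.98 from less than 1 CPM in all 3 pre-transplant libraries to 53.7, 37.1 and 34.5 CPM. In pre-transplant replicates 2 and 3 Csf2 was at 0.112 and 0.153 CPM, under the floor of 3 counts. Of the 18 cytokines and chemokines listed 15 were tested, of which 7 rose and 2 fell. By library totals 7 were higher and 7 lower, and relative to the T cell genes only Ifng and Csf2 were higher, with 8 lower. The others that rose were Il21, Il10 and the chemokines Xcl1, Ccl3 and Ccl4, which attract other leukocytes. Lta, which encodes lymphotoxin alpha and is also made by B cells, fell from 11.9, 8.39 and 30.4 CPM to 0.299, 0.0897 and 1.69 CPM. The call of Tgfb1 (-1.73) was lost without pre-transplant replicate 3 or post-transplant replicate 1 or 2, which left Lta as the 1 member that fell. Tnf was at 5.98, 3.69 and 1.45 CPM before and at 2.89, 0 and 2.33 CPM after transplant, overlapping, and Il2 had too few counts to be tested.

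Fasl (ENSMUSG00000000817, chromosome 1, 161780689 to 161788495, GRCm38), the ligand with which T cells kill cells that carry the death receptor Fas, was at 10.3, 16.0 and 14.1 CPM before and at 648, 480 and 641 CPM after transplant. Its log2 fold change was 5.45 (standard error 0.41, edgeR adjusted p = 0.000105), and it was also higher relative to the T cell genes (1.63). The receptor Fas rose by 2.37 by TMM, did not pass by library totals (0.64) and was lower than the T cell genes. Of 13 death ligands, receptors and their caspases 5 rose, 1 fell and 7 did not pass, against 2 higher and 5 lower by library totals. Relative to the T cell genes 2 were higher and 11 lower. The member that fell, Tnfrsf10b, passed the test only while pre-transplant replicates 1 and 2 and the 3 post-transplant libraries were all kept.

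Among genes that control survival, the A1 family and Bcl2 moved in opposite directions. Bcl2a1b, an activation-induced inhibitor of apoptosis, was at 13.9, 18.2 and 21.04 CPM before and at 1081, 892 and 1367 CPM after transplant, a log2 fold change of 5.97. Bcl2a1d rose by 5.92, but these genes are near-identical copies, and how reads were divided between them is uncertain. Bcl2, the survival factor of resting lymphocytes, fell from 98.0, 68.1 and 76.0 CPM to 29.9, 31.6 and 31.8 CPM (log2 fold change -1.38, standard error 0.35). Bmf, which promotes apoptosis, fell by 2.81. In all, 13 of 14 listed BCL-2 family genes were tested, 5 rose and 2 fell, with 5 higher and 5 lower by library totals and 2 higher and 10 lower relative to the T cell genes.

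Several receptors of effector and of chronically stimulated T cells rose by TMM, as did several costimulatory receptors. Pdcd1 (ENSMUSG00000026285, chromosome 1, 94038305 to 94052553, GRCm38), which encodes the inhibitory receptor PD-1, was at 5.98, 1.23 and 4.74 CPM before and at 409, 1291 and 345 CPM after transplant, a log2 fold change of 7.41 (standard error 0.84). Its level in post-transplant replicate 2 was more than that of the other post-transplant libraries combined. Cd160, a receptor of cytotoxic cells, rose by 6.84, and Havcr2, which encodes TIM-3, by 5.11. Pdcd1 and Cd160 were higher under all 3 scalings. Of the 14 inhibitory receptors and associated transcription factors 7 rose, and 1, the early response gene Nr4a1, fell (-3.05). By library totals 4 were higher and 3 lower, and relative to the T cell genes 3 were higher and 10 lower. Lag3 (1.75) was called although the stages overlapped (9.32, 4.25 and 5.66 against 32.7, 8.97 and 23.0 CPM), and lost its call without pre-transplant replicate 2 or post-transplant replicate 1 or 3.

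Tnfrsf9, which encodes the costimulatory receptor 4-1BB, was at 10.7, 4.14 and 12.5 CPM before and at 1117, 979 and 1158 CPM after transplant (log2 fold change 6.88, standard error 0.55). Cd226, an activating receptor, rose by 6.08, and both genes were higher under all 3 scalings. Icos rose by 4.60 by TMM and 2.93 by library totals, and did not differ from the T cell genes by the test (0.72). In all, 7 of the 10 costimulatory receptors rose and none fell, 6 of them also by library totals. Relative to the T cell genes 2 were higher and 6 lower, among them Cd28 at -1.13, the receptor that naive T cells use for costimulation.

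Several receptors shared with natural killer (NK) cells rose. Klrc1 (ENSMUSG00000030167, chromosome 6, 129666015 to 129678973, GRCm38), which encodes the inhibitory receptor NKG2A, was at 19.0, 5.37 and 3.29 CPM before and at 1928, 1372 and 1879 CPM after transplant (log2 fold change 7.55, standard error 0.78). Its partner chain Klrd1 rose by 5.76 and Klrg1, a marker of terminal effector cells, by 6.68. Klrk1, which encodes the activating receptor NKG2D, was at 46.1, 31.2 and 17.0 CPM before and at 1012, 691 and 1097 CPM after transplant, a log2 fold change of 4.89 (standard error 0.50). Klrc1, Klrd1 and Klrg1 were also higher relative to the T cell genes, whereas that call of Klrk1 (0.98) was lost without pre-transplant replicate 2 or 3 or post-transplant replicate 1 or 3. Of 13 NK receptor genes 7 rose and 2 fell, against 6 and 4 by library totals and 4 and 7 relative to the T cell genes. Tyrobp, an adaptor that myeloid and NK cells carry, fell from 157, 107 and 412 CPM to 22.3, 33.1 and 16.6 CPM. Klrb1c (-1.75) fell too, but lost its call without post-transplant replicate 2 or 3.

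Transcription factors of effector cells rose in part. Batf (ENSMUSG00000034266, chromosome 12, 85686669 to 85709087, GRCm38), an AP-1 family factor needed for effector differentiation, was at 11.8, 13.7 and 29.5 CPM before and at 1394, 944 and 1135 CPM after transplant, with a log2 fold change of 5.98 (standard error 0.52). It was the 1 member of 12 that was higher relative to the T cell genes. Id2, which blocks E proteins in effector cells, rose by 3.98 and Stat4, which relays interleukin-12, by 3.19. Tbx21, encoding T-bet, was at 9.22, 11.8 and 26.5 CPM before and at 140, 71.3 and 90.2 CPM after transplant (2.67, standard error 0.51). Its relative Eomes was at 17.5, 11.6 and 7.34 and then at 45.4, 35.7 and 42.7 CPM, which passed by TMM (1.76) and not by library totals (0.10). Of the 12 factors 8 rose and 2 fell, against 5 and 3 by library totals and 1 and 9 relative to the T cell genes. Irf4 and Zeb2, which fell by 2.13 and 2.36, are also expressed by B cells and by myeloid cells, whose transcripts were abundant before transplant. The part of those cells in their change was not tested.

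Many genes of naive and memory T cells fell. Besides Tcf7 (30.3, 39.7 and 70.8 CPM before, 16.6, 15.6 and 16.1 CPM after, log2 fold change -1.54, edgeR adjusted p = 0.0257), the lymph node chemokine receptor Ccr7 fell from 137, 123 and 398 CPM to 2.59, 17.3 and 1.97 CPM (-4.91, standard error 0.94). Id3, Foxp1 and Bach2, factors that restrain effector differentiation, fell by 5.26, 3.15 and 3.17. Of the 18 genes listed 8 fell and 2 rose by TMM, 16 were lower and 1 higher by library totals, and all 18 were lower relative to the T cell genes. The median was 0.62 below that of all genes. The genes that rose were Cd28 and Cd27, and 1 of the 2 remained called when pre-transplant replicate 1 or 2 or post-transplant replicate 1 or 2 was left out. Lef1, the relative of Tcf7, did not pass by TMM and overlapped (48.5, 51.4 and 63.5 against 48.8, 41.2 and 32.2 CPM). Il7r, the receptor for the survival cytokine interleukin-7, was at 79.7, 50.9 and 25.9 CPM before and at 109, 45.7 and 41.5 CPM after transplant. Ccr7, Id3, Foxp1 and Bach2 are also expressed by B cells, and what share of their fall lies in T cells was not tested.

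Receptors for migration and for cytokines changed gene by gene. Cxcr6, which directs effector cells to the liver, was at 46.7, 43.7 and 38.4 CPM before and at 1690, 1090 and 1457 CPM after transplant, a log2 fold change of 5.04 (standard error 0.39), and it alone of this list was higher relative to the T cell genes. Ccr2, a receptor for inflammatory chemokines, rose by 4.40. Cxcr5, which leads lymphocytes to B cell follicles, fell from 202, 100.1 and 275 CPM to 0.398, 0.628 and 2.12 CPM. Of the 19 homing and adhesion genes 4 rose and 2 fell, which is near the background of 19.7% higher, and 10 rose without pre-transplant replicate 3. By library totals 3 were higher and 8 lower. Cd44, the usual surface marker of activated T cells, was at 56.2, 51.3 and 47.4 CPM and then at 102, 68.9 and 85.4 CPM, which did not overlap and did not pass the test (0.73). It was lower by library totals (-0.90).

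Of 25 cytokine receptors, JAK and STAT genes 7 rose and 3 fell by TMM, 3 were higher and 14 lower by library totals, and none was higher relative to the T cell genes. Il2ra, the alpha chain of the interleukin-2 receptor that appears on activated T cells, was at 5.27, 3.69 and 2.07 CPM before and at 99.3, 88.4 and 161 CPM after transplant (log2 fold change 4.99, standard error 0.52). Il18rap and Il18r1, the chains of the interleukin-18 receptor, rose by 4.73 and 3.02. Il4ra, which B cells carry as well, fell by 2.82.

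The T cell receptor (TCR) complex itself was higher post-transplant. Cd3g, a signaling chain of the complex, was at 52.7, 46.1 and 58.3 CPM before and at 3778, 2490 and 4051 CPM after transplant, a log2 fold change of 6.04 (standard error 0.43). Cd3e, encoded nearby on chromosome 9, was at 41.0, 27.6 and 78.0 CPM before and at 220, 172 and 176 CPM after transplant (1.95, standard error 0.44). Both chains belong to 1 complex, yet Cd3e did not pass by library totals (0.44) while Cd3g did (4.44). Of 15 T cell identity genes 13 rose and none fell, with 10 higher and 1 lower by library totals. The median was 3.53 by TMM and 1.96 by library totals, 3.82 and 3.85 above that of all genes. This list holds the 11 genes used for scaling, so relative to them it spreads around its own centre, with 4 higher (Cd3g, Cd3d, Trbc1 and Trbc2) and 6 lower. Trbc1 and Trbc2 are near-identical, and reads may be shared between them.

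Signal transducers of the TCR split. Themis, a regulator of TCR signaling, rose from 15.9, 11.8 and 5.66 CPM to 352, 213 and 290 CPM (log2 fold change 4.68, standard error 0.51). The kinases Zap70 (3.94), Prkcq (2.89) and Lck (2.71) rose as well. Malt1 and Nfatc1, which act in B cells as well as in T cells, fell by 1.57 and 1.88. Of 21 genes 12 rose and 6 fell, against 4 and 9 by library totals, and none was higher relative to the T cell genes. The number that fell was 3 without pre-transplant replicate 3 or without post-transplant replicate 3.

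Early response genes were lower at day 7 or did not pass the test. Jun, a subunit of AP-1, was at 17.5, 15.8 and 70.8 CPM before and at 5.28, 1.08 and 1.97 CPM after transplant (log2 fold change -3.65, standard error 0.82). Egr1, a transcription factor induced within minutes of receptor signaling, fell by 3.20. Of 15 AP-1 and EGR genes 5 fell and none rose, and 12 were lower by library totals. Only 3 fell without pre-transplant replicate 3 or without post-transplant replicate 2. Their median was -1.18, and without pre-transplant replicate 3 it was 0.19, 0.29 above that of all genes. Levels of Jun and Egr1 were highest in pre-transplant replicate 3. In Fos the stages overlapped (0.507, 1.01 and 26.0 against 0.797, 1.08 and 2.54 CPM).

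Genes of cell division rose almost as a whole. Cdk1, the kinase that drives entry into mitosis, was at 4.16, 3.81 and 18.1 CPM before and at 1099, 903 and 1046 CPM after transplant, a log2 fold change of 6.86 (standard error 0.74). Ccnb2 and Ccnb1, the cyclins that activate it, rose by 5.52 and 5.03, and Bub1, a kinase of the spindle checkpoint, by 6.73. Of the 35 genes of G2/M and mitosis 33 rose and none fell. The other two, Aurkb and Foxm1, did not pass (0.57 and 1.01). The median log2 fold change was 3.93 by TMM, 2.33 by library totals and 0.13 relative to the T cell genes, 4.21 to 4.22 above the median of all genes in each case. By library totals 28 were higher and none lower, and relative to the T cell genes 9 were higher and 7 lower. Of these 9, Cdk1, Ccnb2, Bub1 and Nusap1 stayed higher whichever library was left out, and the other 5 each lost the call in at least 1 such fit. All 35 rose without pre-transplant replicate 3.

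Since these genes moved together, the DNA before their starts is shown for a few. These few were taken in order of p among members that rose and hold both elements described next, with a chromosome left out. They are therefore no sample of the whole list. Many mitotic genes are known to share 2 promoter elements, the CHR (core TTTGAA, or TTCAAA on the other strand) and CCAAT boxes (CCAAT, or ATTGG), which bind the DREAM complex and NF-Y. Windows from 250 bases before to 50 bases after the first RefSeq start (GRCm38.p6) were found for 28 of the 35 genes. The CHR core was present in 22 of them (78.6%), against 18.1% of all 27025 windows, and CCAAT in 20 (71.4%) against 37.9%. Both were present in 17 (60.7%) against 7.12%. Of 17 cytotoxic granule genes with a window 3 (17.6%) held the CHR core, 3 held CCAAT and 1 (5.88%) both. Short letters of this kind occur by chance, and a match is no evidence of binding. The 250 bases before the start of Top2a (chr11:99024190-99024439, minus strand), a topoisomerase that untangles DNA, of Ccnb2 (chr9:70421555-70421804, minus strand) and of Cdk1 (chr10:69352913-69353162, minus strand) are printed 5′ to 3′ on the gene's strand, with the motifs in capitals.
Top2a: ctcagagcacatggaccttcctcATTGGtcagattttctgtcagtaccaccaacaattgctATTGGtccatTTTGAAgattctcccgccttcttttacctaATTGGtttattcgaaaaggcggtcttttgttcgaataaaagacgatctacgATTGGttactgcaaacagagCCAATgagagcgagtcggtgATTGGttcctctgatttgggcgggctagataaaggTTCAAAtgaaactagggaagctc
Ccnb2: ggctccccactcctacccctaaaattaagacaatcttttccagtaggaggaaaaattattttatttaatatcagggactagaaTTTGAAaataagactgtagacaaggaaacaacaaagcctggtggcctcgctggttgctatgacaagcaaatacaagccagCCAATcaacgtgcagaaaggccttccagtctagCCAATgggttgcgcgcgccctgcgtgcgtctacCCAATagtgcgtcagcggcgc
Cdk1: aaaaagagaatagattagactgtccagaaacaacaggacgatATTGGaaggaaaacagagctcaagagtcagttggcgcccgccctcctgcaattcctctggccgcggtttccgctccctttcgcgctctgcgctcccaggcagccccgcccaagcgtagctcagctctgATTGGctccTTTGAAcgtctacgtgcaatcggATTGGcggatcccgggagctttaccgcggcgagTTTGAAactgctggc
Top2a, the first of these, was at 30.5, 32.0 and 40.1 CPM before and at 450, 332 and 434 CPM after transplant (log2 fold change 3.57, standard error 0.36). It did not differ from the T cell genes by the test (-0.21), whereas Ccnb2 (1.89) and Cdk1 (3.34) were higher.

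DNA replication genes followed. Pcna, the sliding clamp of DNA polymerases, was at 48.1, 33.0 and 32.4 CPM before and at 2271, 1999 and 2472 CPM after transplant (log2 fold change 5.89, standard error 0.41). Rfc4, a subunit of the clamp loader, rose by 6.64, Rrm2, which makes deoxynucleotides, by 4.58 and the helicase subunit Mcm6 by 3.72. Of 39 S phase genes 30 rose and none fell by TMM, 18 were higher and 6 lower by library totals, and 3 were higher and 23 lower relative to the T cell genes (2 of the 3 whichever library was left out). The median was 2.79 above that of all genes. Of the 16 G1 cyclins and their inhibitors 5 rose and 2 fell, and 3 rose without post-transplant replicate 1 or without post-transplant replicate 2. By library totals 2 were higher and 8 lower, and relative to the T cell genes 1 was higher and 14 were lower. Ccne2, which encodes the cyclin that starts S phase, rose from 2.74, 4.59 and 1.61 CPM to 137, 106 and 187 CPM. The inhibitor Cdkn1a (-1.70) lost its call without pre-transplant replicate 3 or post-transplant replicate 1 or 2, and the number that fell was then 0. It was 1 without pre-transplant replicate 2 or post-transplant replicate 3.

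**Figure D3:**
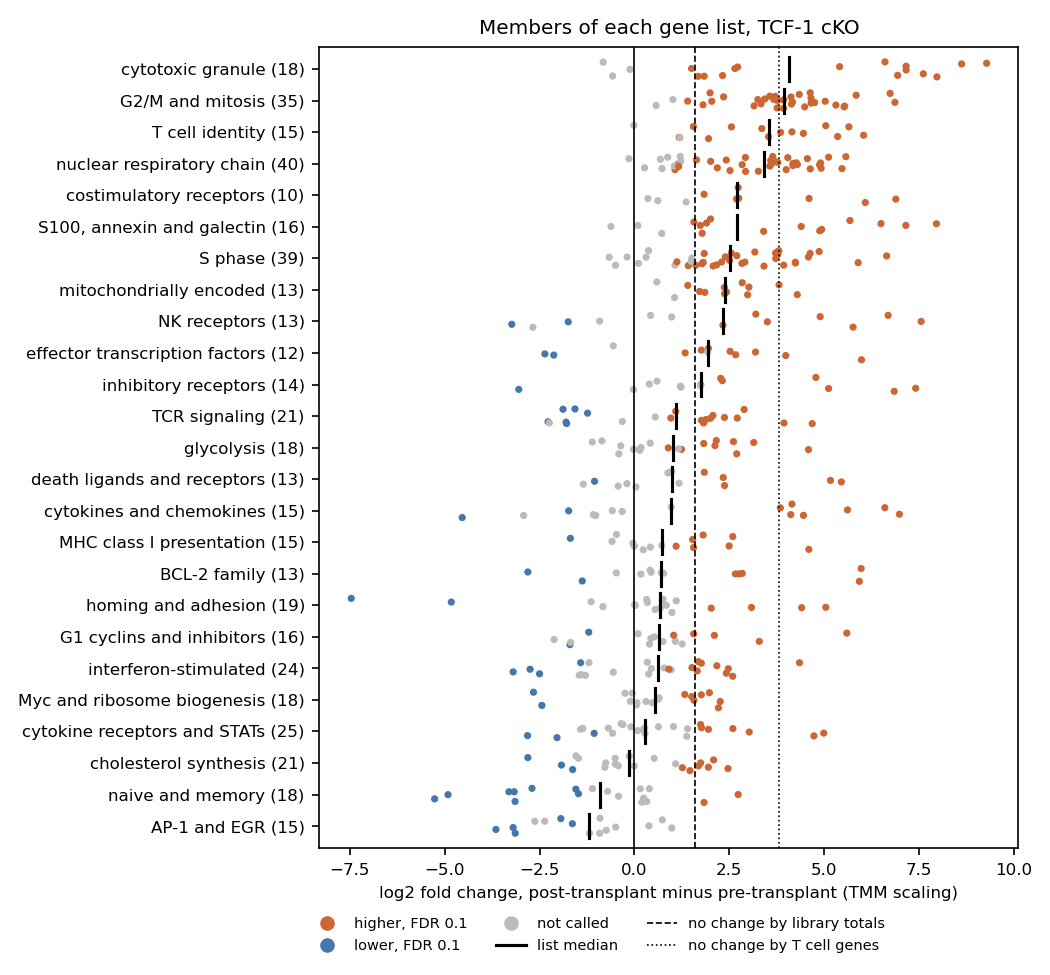
Log2 fold change (post-transplant minus pre-transplant, TMM) of each tested member of 25 gene lists, the number in parentheses, with called members in color and the list median as a bar. The dashed line at 1.61 marks no change by library totals and the dotted line at 3.82 no change relative to the T cell genes. Medians range from 4.06 for cytotoxic granule genes to -1.18 for AP-1 and EGR genes, a median that was 0.19 without pre-transplant replicate 3.

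Genes of energy metabolism rose unevenly. Cox6c, a subunit of cytochrome c oxidase, was at 51.5, 56.9 and 51.8 CPM before and at 2479, 2317 and 2804 CPM after transplant (log2 fold change 5.57, standard error 0.38). Of the 40 nuclear genes of the respiratory chain 32 rose and none fell, 26 were higher and 3 lower by library totals, and 6 were higher (5 of them whichever library was left out) and 18 lower relative to the T cell genes. Their median was 3.70 above that of all genes. With an offset for GC content and transcript length, 31 rose and the median was 2.38 above that of all genes. Among the 13 mitochondrially encoded members of the chain 11 rose, 4 were higher and 1 lower by library totals, and none was higher and 10 were lower relative to the T cell genes. For mt-Co3 the levels were 3822, 4619 and 844 CPM before and 80226, 38338 and 62886 CPM after transplant, with pre-transplant replicate 3 the lowest.

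Ldha, which makes lactate at the end of glycolysis, rose from 350, 238 and 614 CPM to 8406, 11010 and 9412 CPM (log2 fold change 4.58, standard error 0.48). Relative to the T cell genes it was at 0.90, a call that was lost without pre-transplant replicate 2 or post-transplant replicate 2 or 3, and no other glycolysis gene was higher. Of 18 glycolysis genes 9 rose and none fell by TMM, while 2 were higher and 7 lower by library totals. The glucose transporter Slc2a1 and the first enzyme Hk2 overlapped between the stages, at -0.36 and -1.11. Of 21 cholesterol synthesis genes 7 rose and 3 fell, and 4 rose without post-transplant replicate 1. None was higher by library totals, and 13 were lower, while relative to the T cell genes all 21 were lower. Of the 3 that fell 1 remained without post-transplant replicate 2 or 3.

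Myc, the growth regulator, fell from 26.8, 24.4 and 80.6 CPM to 10.4, 7.54 and 6.42 CPM, while nucleolar genes on the same list rose. Npm1 was at 172, 257 and 157 CPM before and at 1068, 757 and 984 CPM after transplant (log2 fold change 2.26, standard error 0.37), Dkc1 rose by 2.21 and Nop58 by 1.97. Of 18 Myc and ribosome biogenesis genes 7 rose and 2 fell. By library totals none was higher and 10 were lower, and relative to the T cell genes all 18 were lower. The direction of this list therefore depends on the scaling.

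Interferon-stimulated genes moved both ways. Zbp1, a sensor of nucleic acids, was at 31.1, 20.4 and 28.6 CPM before and at 581, 481 and 569 CPM after transplant (log2 fold change 4.35, standard error 0.38), and the GTPases Gbp2 and Igtp rose by 2.59 and 2.47. Stat2 fell from 60.6, 44.5 and 67.4 CPM to 10.9, 10.05 and 9.59 CPM, and the antiviral genes Rsad2 and Oasl2 by 2.75 and 3.20. Of 24 genes 10 rose and 4 fell by TMM, and 2 were higher and 12 lower by library totals. None was higher and 23 were lower relative to the T cell genes. Of 15 genes of MHC class I presentation 7 rose and 1 fell, and 11 rose without pre-transplant replicate 3. By library totals 3 were higher and 7 lower, and relative to the T cell genes 1 was higher and 14 were lower. The member that fell, Tapbp, lost its call without pre-transplant replicate 3 or post-transplant replicate 2 or 3. Psme2, a proteasome activator, rose from 78.3, 84.2 and 171 CPM to 3009, 2337 and 2722 CPM. H2-K1, which encodes the class I molecule by which donor cells were sorted, overlapped (1194, 969 and 3604 against 1716, 2679 and 1357 CPM).

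S100, annexin and galectin genes, which are characteristic of effector and memory cells, included very large changes. Lgals1 (ENSMUSG00000068220, chromosome 15, 78926725 to 78930465, GRCm38), which encodes galectin-1, was at 55.7, 54.1 and 222 CPM before and at 29463, 25178 and 27857 CPM after transplant, a log2 fold change of 7.96 (standard error 0.75). S100a4, S100a10 and Anxa2 rose by 7.15, 6.49 and 4.93. Of 16 genes 13 rose and none fell, with 8 higher and 3 lower by library totals, 6 and 8 relative to the T cell genes, and a median 2.99 above that of all genes. Lgals1, S100a4, S100a10 and Anxa2 were higher under all 3 scalings.

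Ranked by p-value over all genes, the first 10 that rose, at a mean of at least 10 CPM and without overlap, were Gzmb, Dnajc15, Rps27l, S100a10, Hmgb2, Kif22, Cox6c, Rpa3, H2afz and Serpinb1b. Their log2 fold changes lay between 5.57 and 9.28, and all 10 were also higher relative to the T cell genes. Serpinb1b was at 0.203, 0.224 and 0.153 CPM before transplant, under the floor of 3 counts, so the size of its change (8.18) is uncertain. Hmgb2, a chromatin protein of dividing cells, was at 46.5, 50.5 and 84.2 CPM before and at 8124, 6900 and 9869 CPM after transplant. H2afz, which encodes a histone variant, rose by 5.95 and Kif22, a mitotic motor, by 6.11. The first 10 that fell were Cnr2, Ighd, H2-DMb2, Siglecg, Cr2, Ebf1, Cd83, Mzb1, Spib and Ms4a1, with log2 fold changes between -8.78 and -5.23. Nearly all of them are genes of B lineage cells, such as Ighd (immunoglobulin delta), Ebf1 (a B cell transcription factor) and Ms4a1 (CD20).

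Transcripts of other blood cells, abundant before transplant, fell. All 17 B cell genes fell under each of the 3 scalings, with a median log2 fold change of -6.62 by TMM. Of 10 plasma cell genes 9 fell, and Mzb1, a chaperone of antibody secretion, went from 86.3, 103 and 206 CPM to 0.598, 0.269 and 0.916 CPM. Erythroid genes fell in 8 of 10, among them Hba-a1 (1458, 378 and 3798 CPM before and 17.3, 23.1 and 41.7 CPM after), which shares reads with its copy Hba-a2. The neutrophil and monocyte list fell in 8 of 19, with Csf1r, the receptor of macrophage growth factor, at 84.5, 78.2 and 163 and then 7.67, 4.58 and 4.72 CPM. Dendritic cell genes fell in 6 of 11, platelet genes in 5 of 5 and CD4 T cell genes in 2 of 6. No member of these lists rose, but without pre-transplant replicate 3 the neutrophil and monocyte list and the dendritic cell list each had 1 that did. Post-transplant, B cell transcripts summed to at most 575 CPM.

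NF-κB pathway genes that the study's RNA-seq text names were split as well. The study names them for TCF-1 cKO against WT cells post-transplant, which is another comparison. Ubd, which encodes a ubiquitin-like protein induced by interferon, rose from 0.203, 3.69 and 3.44 CPM to 28.9, 34.5 and 55.6 CPM (log2 fold change 4.01, standard error 0.84). Chuk, a kinase of the NF-κB pathway, rose by 1.69 by TMM, was at -0.01 by library totals and was lower than the T cell genes. Trim25 fell by 1.99. Mavs (-1.26) was called only while pre-transplant replicates 1 to 3 and post-transplant replicates 2 and 3 were all kept. Rela (-2.24), Irf3 (-0.33), Traf2 (0.08), Tradd (1.17), Nod1 (-1.18) and Tnfrsf1a (-1.35) did not pass. By library totals Rela, Irf3, Traf2, Mavs, Nod1, Tnfrsf1a and Trim25 were lower, Fasl and Ubd were higher, and Chuk and Tradd did not pass.

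The same stages were compared in WT cells to see where the change without TCF-1 differed. In WT, 1628 of 16790 genes rose (9.7%) and 1734 fell (10.3%). Of 15957 genes tested in both genotypes 1169 rose in both, which is 32.7% of those that rose in TCF-1 cKO and 73.6% of those that rose in WT. In both genotypes 946 fell (33.7% and 57.3%), and 14 genes were called in opposite directions. The WT pre-transplant libraries were deeper, at 18978963 to 28884454 counts. A gene called in 1 genotype and not in the other is not thereby shown to differ.

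The difference itself was tested as the interaction of stage and genotype over 12 libraries, and 1 of 21526 genes (0.00465%) passed an FDR of 0.1. At an unadjusted p below 0.05 there were 3377 genes, limma-voom called 1 gene and DESeq2 1713. In edgeR 2093 genes passed when WT post-transplant replicate 3 was left out, and 5 without TCF-1 cKO pre-transplant replicate 3. The 1 gene, Gm28438, is an unprocessed pseudogene (ENSMUSG00000101939, chromosome 1, 24612775 to 24613119, GRCm38) of mitochondrial sequence. It was at 31.9, 35.4 and 4.55 CPM in TCF-1 cKO and at 0 in all 3 WT libraries before transplant, and at 103, 96.8 and 127 CPM and 74.2, 33.8 and 202 CPM after it. Reads can be shared with its near-identical mitochondrial copy.

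Apart from Gm28438, no gene passed the interaction test, and the values are therefore given side by side. Gzmb changed by 9.28 in TCF-1 cKO and 8.08 in WT cells, and Pdcd1 by 7.41 and 6.69. Klrk1 had 4.89 and 2.17 (not called in WT), with a difference of 2.45 (standard error 1.17, edgeR adjusted p = 0.325). Lag3 had 1.75 and 5.48, a difference of -3.96 (standard error 0.95, edgeR adjusted p = 0.233), and Prf1 1.68 and 3.63. Cd28 was at 2.73 and -0.04. By lists, G2/M and mitosis genes had a median of 3.93 in TCF-1 cKO and 2.60 in WT, nuclear respiratory chain genes 3.42 and 2.08, and mitochondrially encoded genes 2.37 and 0.80. Cytotoxic granule genes had 4.06 and 4.25, and naive and memory genes -0.91 and -1.94. The median of all genes was -0.29 and -0.30. The smallest adjusted p of the interaction in any list was 0.16, in the plasma cell list. B cell to T cell transcript ratios were higher in TCF-1 cKO (30.5 to 41.1) than in WT (19.9 to 23.1) pre-transplant libraries, and their part in these differences was not tested.

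**Figure D4:**
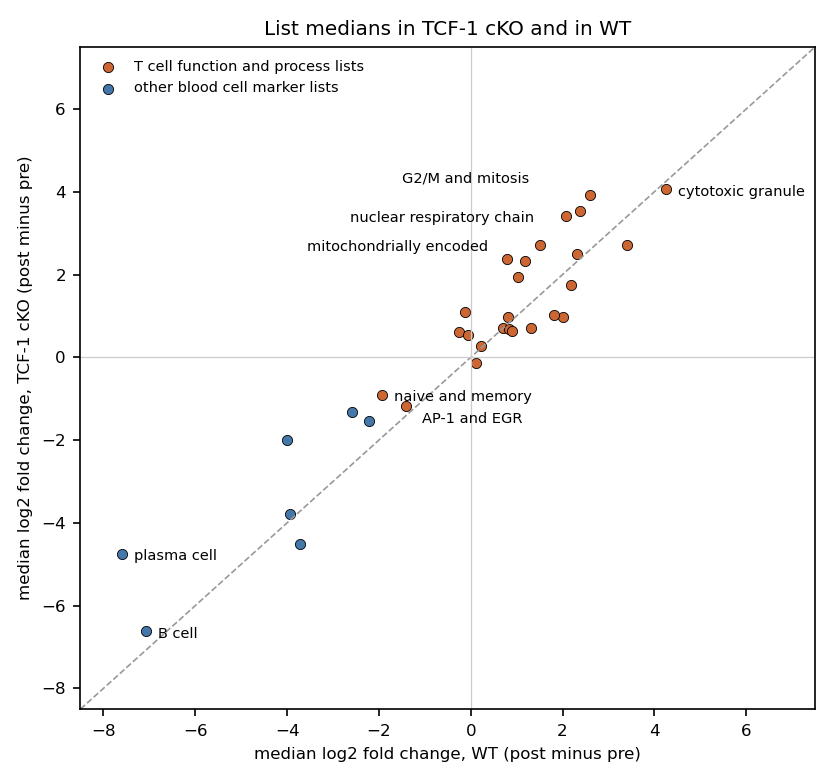
Median log2 fold change (post-transplant minus pre-transplant, TMM) of 25 lists of T cell functions and processes and 7 marker lists of other blood cells, in WT on the horizontal and TCF-1 cKO on the vertical axis, with the line of equal change dashed. Mitotic genes lie above the line at 3.93 against 2.60 and naive and memory genes at -0.91 against -1.94, and no list member passed the interaction test.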

How the data were processed

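RNA of sorted CD8 T cells was made into cDNA with SMARTseq HT and into libraries with Nextera XT, and sequenced paired-end. The authors pseudoaligned the reads with kallisto 0.46.2 and deposited for each transcript an estimated count, not scaled for length or depth, and a TPM value, scaled for both. The submitters' processing notes also name limma and mm9, and the transcript release is not given in the sources used here. Estimated counts were summed per gene (GENCODE M21, GRCm38, which may not be the release of the authors), rounded and tested with edgeR 4.0.16 in R 4.3.3 (TMM, filterByExpr, quasi-likelihood test, Benjamini-Hochberg adjustment, FDR 0.1 as in the study), over the 6 TCF-1 cKO samples, and for the interaction over all 12. Standard errors were the log2 fold change divided by the square root of F. TPM entered as an alternative, in limma 3.58.1 on log2(TPM + 1).

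Samples were grouped by title, at 3 per group. Named genes were Tcf7, Cd8a, Cd8b1 and Cd4, list members (first up to 3 per direction by p), the first 10 per direction by p among genes past the FDR, without overlap and at a mean of 10 CPM or more, genes past the FDR for the interaction, and genes of the study's RNA-seq text (here those of the NF-κB pathway, and others as list members). The 32 lists hold 563 genes, of which 562 were matched, and both lists and members were chosen with earlier results of these data known. The other alternatives were limma-voom with and without quality weights, DESeq2 1.42.0 and its size factors, library totals, other filters, FDR 0.05, a GC content and length offset, thinning to the smallest total, leaving out 504 genes of other blood cells, 1 fit over 12 samples, a replicate block and leaving out each library. Scaling by T cell genes was chosen after the data were seen. The main test was checked on simulated counts with known changes of 2-, 4- and 8-fold. It recovered 0%, 9.19% and 71.2% of the changed genes. Of its calls 15.0% were false at 4-fold and 10.3% at 8-fold. Each simulation tested 184 to 187 changed genes, against 6774 calls in the data, so that its cutoff for the adjusted p was stricter. The recovered shares therefore do not carry over to the data. A gene that did not pass may still have changed, and some 8-fold changes were missed in the simulation. Promoter windows came from RefSeq. A few genes within this rule are not reported here.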

Additional observations from a re-analysis of the deposited data

Results flagged for a closer look

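Gm28438, a pseudogene of mitochondrial sequence, differed between the genotypes in its change with stage, with an interaction of -11.69 on the log2 scale (TCF-1 cKO minus WT, standard error 1.51, edgeR quasi-likelihood test, Benjamini-Hochberg adjusted p = 0.0461). Before transplant all 3 WT libraries held 0 counts and the TCF-1 cKO libraries 363, 367 and 67, so the fitted value depends on the prior count and is no bound. Post-transplant the TCF-1 cKO libraries held 1179, 1233 and 2053 counts and the WT libraries 1541, 433 and 2358. Mitochondrially encoded genes took 0.567% to 3.25% of counts in TCF-1 cKO and 0.648% to 2.53% in WT pre-transplant libraries, and the part of reads shared with the mitochondrial copy was not tested.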

How the results depend on the processing

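The 6774 calls became 12268 by library totals, 11796 on TPM, 16616 by the median ratio of the T cell genes and 17636 by their sum, and the share of calls that were higher went from 54.0% to 13.5%, 13.2%, 1.37% and 0.448%. The other alternatives gave within 1.5 times the main count, from 5157 in 1 fit over 12 samples to 8834 with quality weights, and leaving out 1 library gave 5242 to 7114, with 4076 genes called each time. The interaction gave 1 call, against 3440 with quality weights, 1713 by DESeq2, 580 without a filter, 5 by library totals, 2 with the GC content and length offset, 0 after thinning and 0 to 2093 without 1 library (2093 without WT post-transplant replicate 3, 5 without TCF-1 cKO pre-transplant replicate 3). Same-numbered samples did not deviate together (correlations -0.0235, -0.0899 and -0.174). With 3 libraries per stage, these values cannot decide whether same-numbered samples are paired. With a replicate block there were 5478 calls, and 0 for the interaction. Reversed on TPM were Cd3e (-0.17), Prf1 (-0.26), Ccl5 (-0.83), Lag3 (-0.47), Eomes (-0.35), Prdm1 (-1.36), Il7r (-1.69), Cd44 (-1.27), Il2rb (-0.41), Aurkb (-1.50), mt-Nd6 (-1.34), B2m (-0.42) and Chuk (-1.49), and by library totals Il7r (-1.38), Cd44 (-0.90), mt-Nd6 (-1.04), B2m (-0.0934) and Chuk (-0.00927). With quality weights and without pre-transplant replicate 3, the AP-1 and EGR median relative to all genes turned to 0.16 and 0.29 (without other single libraries it was as low as -1.51) and Cd6 to 1.38 and 1.66 (as low as -0.50 without another), and without that library H2-K1 turned to 0.99 (as low as -0.29 without another). The cause of these changes was not tested. Among 100 named genes that rose, 50 were higher, 21 lower and 29 not called relative to the T cell genes. Depth limits the TCF-1 cKO pre-transplant libraries, in which the floor of 3 counts corresponds to 0.315 to 0.667 CPM of the library total. Lower values there rest on fewer than 3 counts.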
